A study of Mus musculus with 2084 samples.

Results

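Polycomb proteins keep genes silent through modified histones, and 10 genes that encode them were followed here in single cells of the adult mouse brain. The members were given by name: Ezh1, Ezh2, Eed, Suz12, Jarid2, Bmi1, Rnf2, Ring1, Cbx2 and Cbx7. They are 10 of the 35606 gene identifiers in the RNA count table, and all of them passed the filter on low counts in each fit. Polycomb repressive complex 2 (PRC2) deposits the H3K27 methyl mark: its catalytic subunit is either EZH2 or EZH1, EED and SUZ12 form its core, and JARID2 is an accessory subunit that helps to bring it to chromatin. Polycomb repressive complex 1 (PRC1) ubiquitinates histone H2A with RING1 or RNF2 (RING1B), pairs these with a PCGF protein such as BMI1, and in its canonical form reads the PRC2 mark through a CBX protein such as CBX2 or CBX7. In neural stem cells (NSCs) the system is best known for holding the Cdkn2a locus and the Hox clusters silent, and BMI1 and EZH2 for their roles in self-renewal.

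Cells came from the ventricular-subventricular zone (vSVZ), where adult NSCs line the lateral ventricle, and from striatum, cortex and olfactory bulb. The RNA part of a combined RNA and DNA methylation assay gave 1981 labelled cells with counts, each deposited as 1 sample. A letter in the cell name (11 letters, pA to pM) was taken as the biological replicate, which is 1 or more mice and on some plates a pool, so a p-value measures the spread between letters. Wild-type (WT) naive cells, from mice that had neither tamoxifen nor ischemia, carried the letters pA to pF. TiCY mice received tamoxifen at 2 months of age, which switches on enhanced YFP through a Cre driven in Tlx-expressing NSCs of the vSVZ. Their naive cells were pM, and cells taken 2 or 21 days after bilateral carotid artery occlusion, done 2 weeks after tamoxifen, were pI and pH. IFN(A/G)R KO naive cells were pJ, and so were the cells of TiCY-IFN(A/G)R KO mice 2 days after occlusion, so the naive and 2 day KO cells also differ in the TiCY allele named by the labels. Astrocytes of WT mice with a TCF-Lef reporter were pL. For the other mice the labels give neither age nor sex.

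WT cells were labelled qNSC1 and qNSC2 (quiescent NSCs), aNSC (activated NSCs), TAP (transit-amplifying progenitors), neuroblast and oligodendrocyte. Counts were summed over the cells of 1 type in 1 letter where there were at least 3 cells, which gave 22 WT sums: 5 of qNSC1 (pA to pE), 4 of qNSC2 (not pC), 3 each of aNSC and TAP (pC, pD, pE), 4 of neuroblasts (pA to pD) and 3 of oligodendrocytes (pA to pC). The qNSC2 sums of pA and pB and the aNSC and TAP sums of pE hold 3 cells each, so 1 cell can weigh heavily in them. Values are CPM (counts scaled to a common library size) after TMM scaling unless another scale is named. The sources used here do not say how types were assigned; if this was done from the RNA of the same cells, the comparisons of types share their source with the labels, whereas the antibody sorts do not. Cells held 3771 to 1842234 counts (median 160621), with letter medians from 120498 in pD to 1000343 in pB. The labels matched their markers in part. The 7 astrocyte markers summed to 22399 to 54534 CPM in qNSC1 and 959 to 1133 in TAP. The 6 oligodendrocyte markers summed to 58947 to 106433 in oligodendrocytes, and 6 microglial markers to at most 13.4 in any WT sum. The 7 neuroblast markers summed to 2872 to 9637 in neuroblasts, which overlapped TAP (2113 to 6985). The 6 markers of activated NSCs and TAP overlapped as well, with 5222 to 8969 in aNSC, 6581 to 15838 in TAP and 2279 to 11163 in neuroblasts.

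The genes lie on 8 chromosomes of the mouse genome (GRCm38, GENCODE M21). The PRC2 genes are Ezh2 at 6:47530139-47595341 (minus strand), Ezh1 at 11:101191115-101226463 (minus), Eed at 7:89954654-89980983 (minus), Suz12 at 11:79993106-80034123 (plus) and Jarid2 at 13:44729474-44921643 (plus). The PRC1 genes are Bmi1 at 2:18677018-18686629 (plus), Rnf2 at 1:151458004-151500955 (minus), Ring1 at 17:34020792-34024680 (minus), Cbx2 at 11:119022962-119031270 (plus) and Cbx7 at 15:79915807-79971119 (minus). Counts were over exons, and the use of strand is not stated. Exon bases shared with another annotated gene were 6.8% in Eed, 3.8% in Rnf2, 3.6% in Suz12, 2.6% in Ezh2, 1.5% in Cbx7 and 0 in the other members, so a small share of reads of those genes could belong to a neighbour.

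Promoter windows from RefSeq (GRCm38.p6, 250 bases before to 50 after the start site) were found for 9 of the 10 members, with 2 windows for Jarid2. Ezh2, Cbx7 and Ezh1 are shown because their levels separated cycling from quiescent cells or leaned that way, and Suz12 because it and Ezh2 were the members with a match to a searched motif. The motifs were TTCCCGC and TTGGCGC, spellings of the site of E2F factors, which drive genes of DNA replication; both strands were searched and capitals mark a match. Ezh2 (chr6:47594981-47595280, minus strand) held TTGGCGC once, at position 4 counted from 0 at the start base. Suz12 (chr11:79992856-79993155, plus strand) held TTCCCGC once, at position -218. Ezh1 (chr11:101226414-101226713, minus strand) and Cbx7 (chr15:79932597-79932896, minus strand) held neither.
Ezh2: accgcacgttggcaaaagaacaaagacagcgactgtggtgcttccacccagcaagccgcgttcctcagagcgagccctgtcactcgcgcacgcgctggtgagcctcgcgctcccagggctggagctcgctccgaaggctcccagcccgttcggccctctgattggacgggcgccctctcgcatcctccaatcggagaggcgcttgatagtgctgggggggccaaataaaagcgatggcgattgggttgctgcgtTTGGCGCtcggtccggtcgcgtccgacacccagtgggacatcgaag
Suz12: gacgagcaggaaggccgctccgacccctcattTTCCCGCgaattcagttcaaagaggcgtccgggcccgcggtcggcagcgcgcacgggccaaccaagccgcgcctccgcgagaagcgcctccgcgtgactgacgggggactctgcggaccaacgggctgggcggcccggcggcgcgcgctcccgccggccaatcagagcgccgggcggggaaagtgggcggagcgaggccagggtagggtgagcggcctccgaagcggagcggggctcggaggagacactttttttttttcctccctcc
Ezh1: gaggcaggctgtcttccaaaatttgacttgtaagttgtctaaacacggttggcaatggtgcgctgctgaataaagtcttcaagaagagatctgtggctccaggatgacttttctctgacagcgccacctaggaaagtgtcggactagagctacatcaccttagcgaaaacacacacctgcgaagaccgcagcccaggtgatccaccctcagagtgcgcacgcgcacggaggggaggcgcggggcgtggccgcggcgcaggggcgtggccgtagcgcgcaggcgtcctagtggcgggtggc
Cbx7: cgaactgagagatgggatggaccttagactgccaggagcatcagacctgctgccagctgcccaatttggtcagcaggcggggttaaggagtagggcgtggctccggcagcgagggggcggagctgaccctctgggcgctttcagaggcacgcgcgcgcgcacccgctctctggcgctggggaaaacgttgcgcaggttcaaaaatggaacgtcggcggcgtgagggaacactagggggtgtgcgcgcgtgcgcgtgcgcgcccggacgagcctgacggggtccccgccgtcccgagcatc
Of 32851 RefSeq windows of this length, 6.81% held at least 1 of the motifs, 4.6% TTCCCGC and 2.45% TTGGCGC. A match describes the letters and does not show a bound site.

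Between cycling and quiescent WT cells, the catalytic subunit Ezh2 and the reader Cbx2 were higher in aNSC and TAP, and the reader Cbx7 was lower. The other 7 members did not pass the test. The comparison set the mean of aNSC and TAP (6 sums) against the mean of qNSC1 and qNSC2 (9 sums), and edgeR called 17.4% of all 14915 genes tested. The cycling sums came from letters pC, pD and pE alone and the quiescent sums from pA to pE. The main fit has no letter term, so its p-values treat sums of the same letter as independent. The members' count of 3 of 10, 2 higher and 1 lower, stands beside that background, and their median log2 fold change was 0.64 against -0.22 over all genes tested. In simulated counts of this design the test found 98% of genes changed by 4 on the log2 scale but 19% of those changed by 2, so a member that was not called may still differ. The changed genes were picked above a minimum expected count, and no letter effect was simulated. These rates therefore do not cover members near the floor.

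Ezh2 stood at 226, 501 and 414 CPM in aNSC (pC, pD, pE) and at 463, 1018 and 689 CPM in TAP of the same letters. In qNSC1 it stood at 44.3, 39.7, 27.3, 197 and 46.2 CPM (pA to pE), and in qNSC2 at 79.7, 58.7, 500.4 and 25.5 CPM (pA, pB, pD, pE). In qNSC2 of pA and pB (3 cells each) 1 cell held 85.0% and 88.3% of the Ezh2 counts. The groups overlapped through the qNSC2 sum of pD alone, which lay at the level of aNSC in the same letter. The difference was 2.27 ± 0.58 (log2 fold change ± SE, edgeR adjusted p = 0.0108), and Ezh2 was higher in 3 of 3 letters that held both states. The same sums of pD also had the most RNA of 20 proliferation genes among quiescent cells, 619 CPM in qNSC1 and 916 CPM in qNSC2 against medians of 144 and 151 CPM; the part of this in the Ezh2 level was not tested. Without pB the difference was 2.06 (edgeR adjusted p = 0.0537), without pE 2.06 (0.0677), with sums of at least 5 cells 1.99 (0.104), and within pC and pD alone 1.14 (0.549). Within pA, pB and pE alone it was 3.54. There the only cycling sums were aNSC and TAP of pE, with 3 cells each, so the cycling state had no second letter.

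Cbx2, the PRC1 reader with a strong compaction activity on chromatin, stood at 7.01, 31.2 and 39.9 CPM in aNSC and at 39.0, 21.4 and 80.6 CPM in TAP. In qNSC1 it stood at 9.92, 2.21, 0, 2.79 and 0.0568 CPM and in qNSC2 at 2.17, 0, 0.543 and 0 CPM. Cbx2 was near the floor in most quiescent sums, and 1 aNSC sum (pC) lay within the quiescent range. In aNSC and TAP of pE (3 cells each) 1 cell held 78% and 57.4% of the Cbx2 counts. The difference was 4.69 ± 1.00 (edgeR adjusted p = 0.00353, higher in 3 of 3 letters); since some quiescent sums are at 0, the size of this fold depends on the prior count. Within pC and pD alone the call was lost (adjusted p = 0.193).

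Cbx7, the reader that is prominent in stem cells of other kinds, ran the other way. It stood at 35.9, 55.9, 50.4, 49.4 and 33.7 CPM in qNSC1 and at 53.1, 127, 112 and 33.5 CPM in qNSC2. In aNSC it stood at 20.4, 17.5 and 8.24 CPM and in TAP at 11.9, 7.95 and 12.3 CPM. Every cycling sum lay below every quiescent sum. In qNSC2 of pB (3 cells) 1 cell held 85.6% of the Cbx7 counts. In aNSC and in TAP of pE (3 cells each) 1 cell held 100% of them. Cbx7 fell by 2.24 on the log2 scale (SE 0.50, edgeR adjusted p = 0.00469, lower in 3 of 3 letters). The edgeR adjusted p rose past the threshold with sums of at least 5 cells (0.0531), without pC (0.0516) and within pC and pD alone (0.167). The call was also lost within pA, pB and pE alone, where every cycling sum came from pE.

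**Figure D1:**
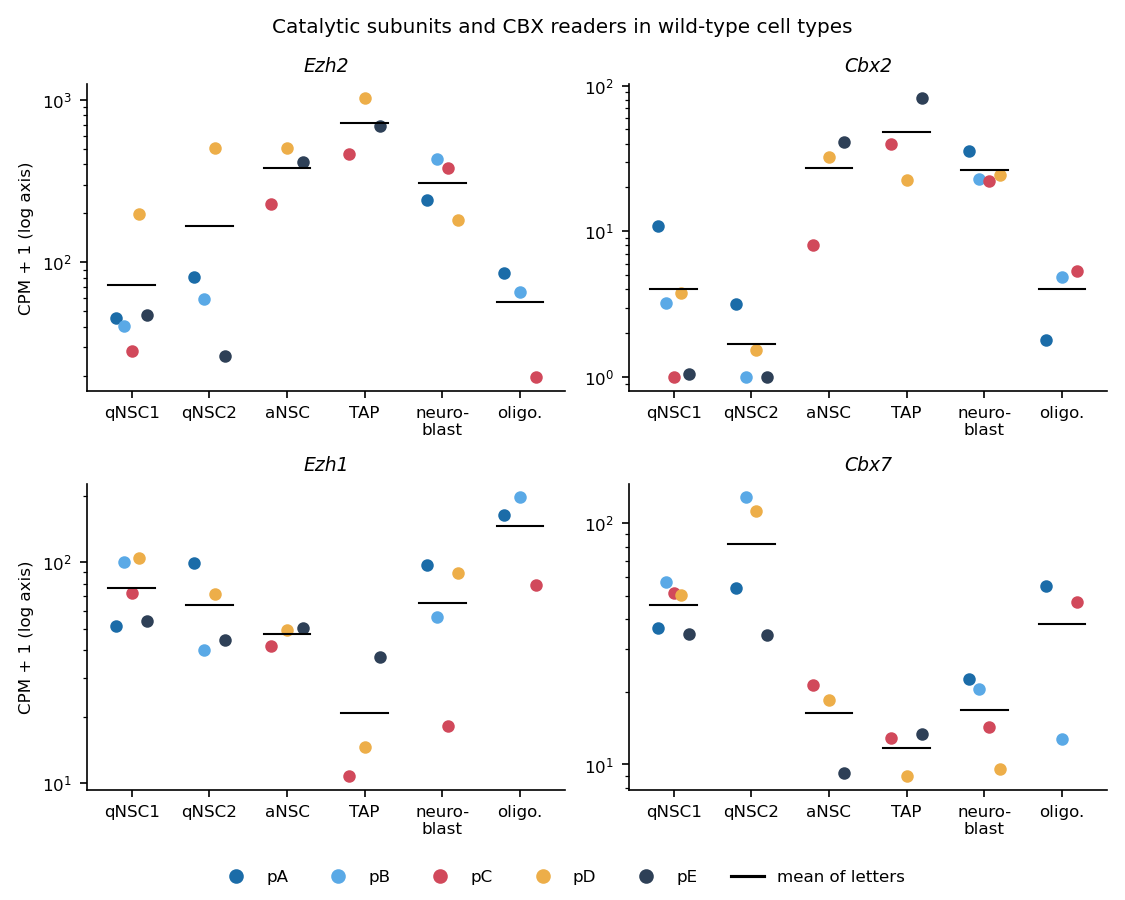
Levels of Ezh2, Ezh1, Cbx2 and Cbx7 in WT cell types; each point is the sum of 1 type in 1 letter, coloured by letter, on a log axis of CPM with 1 added. Ezh2 peaks in TAP (463 to 1018 CPM), Cbx7 is higher in every quiescent sum (33.5 to 127 CPM) than in every aNSC or TAP sum (7.95 to 20.4 CPM), and the pD sums of quiescent cells are the high Ezh2 points.

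Ezh1, the alternative catalytic subunit, which is more typical of resting tissue, stood at 50.4, 99.5, 71.3, 104 and 53.0 CPM in qNSC1 and at 98.6, 39.2, 70.6 and 43.5 CPM in qNSC2. In aNSC it stood at 40.8, 48.6 and 49.4 CPM and in TAP at 9.75, 13.6 and 36.2 CPM. TAP lay below all quiescent sums, whereas aNSC overlapped them. The difference of -1.18 ± 0.45 did not pass (edgeR adjusted p = 0.0713), but it did by DESeq2 (0.0258) and after the highest cell of each sum was left out (-1.44, 0.0431), an alternative chosen after seeing the data.

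The remaining 6 members had differences from -1.38 (Ring1, edgeR adjusted p = 0.199) to 1.26 (Eed, 0.279), none past the threshold in this fit. Suz12 ranged from 45.3 to 239 CPM in cycling and from 30.1 to 189 CPM in quiescent sums. Jarid2 ranged from 37.5 to 116 CPM in cycling and from 0.72 to 80.7 CPM in quiescent sums. Both genes overlapped widely between the states. Eed was the least even of the core PRC2 genes, with 104.99 CPM in aNSC of pE beside 3.39 CPM in pD. In that pE sum 1 of 3 cells held 71.6% of the Eed counts. Of the RING subunits, Rnf2 stood at 155 CPM in TAP of pE against 16.8 and 8.24 CPM in pC and pD, and Ring1 stood at 112 and 123 CPM in the 2 quiescent sums of pD against 12.5 to 49.3 CPM in the other 7. Bmi1, the PCGF subunit that restrains Cdkn2a, was between 0 and 49.7 CPM in quiescent and between 3.39 and 111 CPM in cycling sums. With the letter as a block, Ring1 and Bmi1 were called as well, so that 5 of 10 members passed where 18.3% of all genes tested did.

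**Figure D2:**
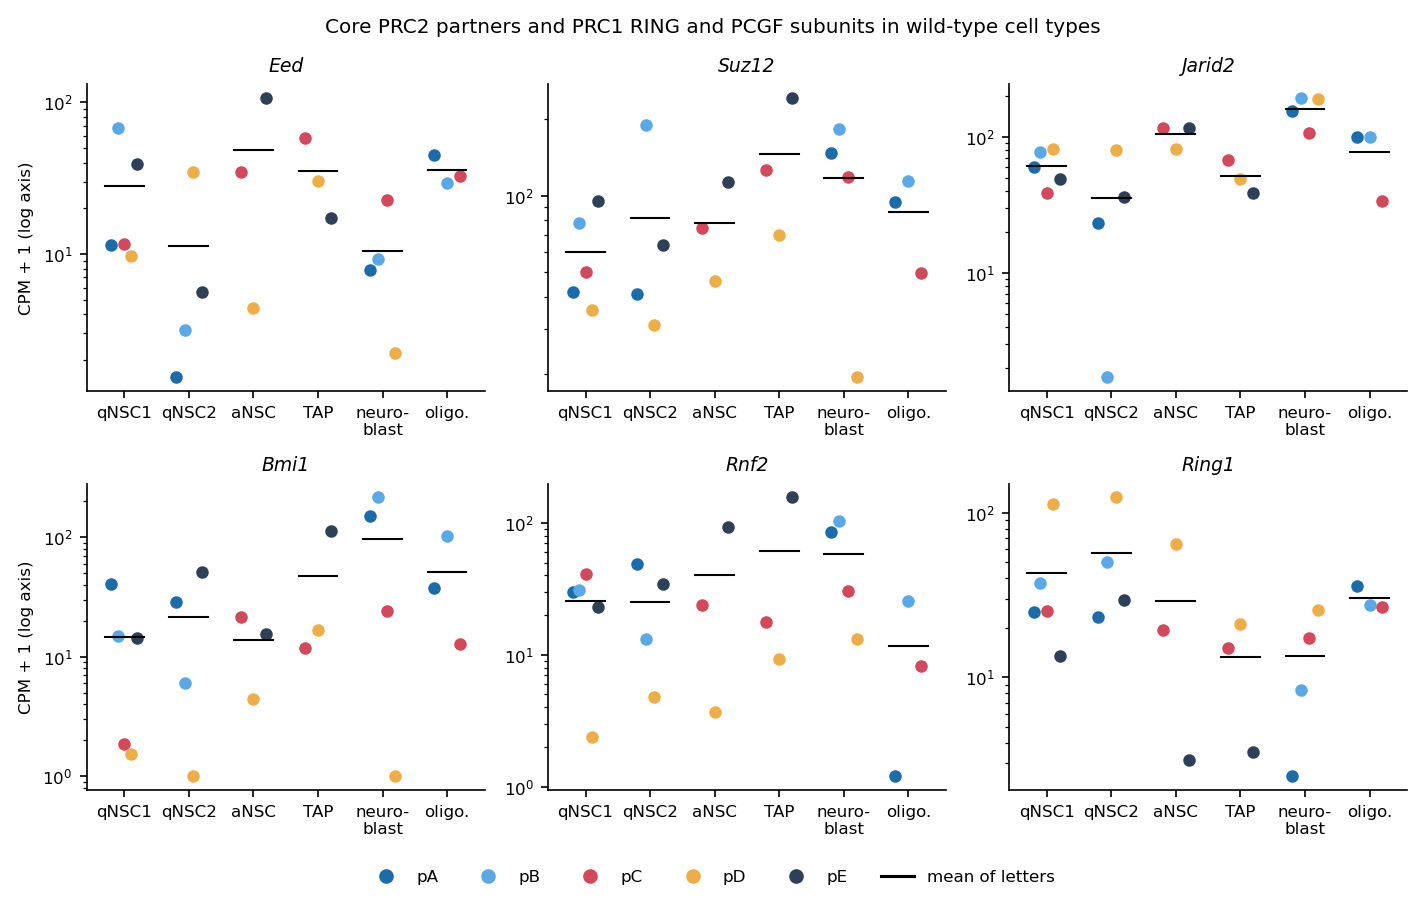
Levels of Eed, Suz12, Jarid2, Bmi1, Rnf2 and Ring1 in WT cell types; each point is the sum of 1 type in 1 letter, coloured by letter, on a log axis of CPM with 1 added. Types overlap for these genes, and letters spread widely within a type, as for Bmi1 in neuroblasts (0 to 214 CPM).

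Neuroblasts, the migrating progeny of TAP, kept intermediate to high Ezh2. It stood at 240.3, 430.4, 378 and 182 CPM (pA to pD), which overlapped aNSC but lay below every TAP sum. Cbx2 stood at 34.4, 21.7, 21.2 and 23.3 CPM and Cbx7 at 21.6, 19.5, 13.3 and 8.60 CPM, both close to the levels of aNSC and TAP. Jarid2, at 154, 190.3, 106 and 189 CPM, was above every TAP sum. Against aNSC and TAP, edgeR called 0 of the 10 members where 1.4% of all genes tested were called; 0 members had an unadjusted p under 0.05, and DESeq2 called 0. Bmi1 split by letter among neuroblasts, with 149 and 214 CPM in pA and pB, the deeply sequenced letters, and 22.9 and 0 CPM in pC and pD.

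In order of mean CPM, Ezh2 ran from TAP (723 ± 279, SD, 3 sums) through aNSC (380 ± 141, 3), neuroblasts (308 ± 116, 4), qNSC2 (166 ± 224, 4) and qNSC1 (70.9 ± 70.8, 5) to oligodendrocytes (55.8 ± 33.7, 3). Each neighbour in that order overlapped the next in range. Oligodendrocytes were the type with the most Ezh1, at 162, 196 and 77.9 CPM, and 2 of these 3 sums lay above every other WT sum. Between qNSC2 and qNSC1 edgeR called 0 members (0.0805% of all genes tested were called), and between oligodendrocytes and qNSC1 also 0 (11% of all genes tested). In both comparisons 0 members had an unadjusted p under 0.05 and DESeq2 called 0.

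On a scale meant for comparing genes, CPM per kilobase of exon, Ezh2 led its pair in cycling cells and Ezh1 in oligodendrocytes. The scale assumes counts of reads over the full exon length, which the sources used here do not state. Ezh2 averaged 108 CPM per kb in TAP and 10.6 in qNSC1, whereas Ezh1 averaged 2.67 and 10.2 in the same types. The share of Ezh2 in the sum of both was 97.5% ± 1.76 in TAP (SD, 3 sums), 89.5% ± 3.07 in aNSC (3), 82.2% ± 12.7 in neuroblasts (4), 59.5% ± 21.7 in qNSC2 (4), 45.5% ± 15.7 in qNSC1 (5) and 28.2% ± 7.90 in oligodendrocytes (3). The sums of qNSC1 ran from 29.9% to 67.8% and those of aNSC from 86.0% to 92.0%, without overlap, whereas qNSC2 of pD reached 88.8%. Cbx2 and Cbx7 showed a like exchange: Cbx2 took 84.9% ± 5.40 of the pair in TAP, 65.2% ± 27.7 in aNSC, 71.3% ± 7.21 in neuroblasts, 1.65% ± 2.83 in qNSC2, 8.70% ± 12.2 in qNSC1 and 16.04% ± 15.9 in oligodendrocytes. Its lowest aNSC share (34.4%) was above its highest quiescent share (29.6%). These shares were taken from the levels tested above and were not tested again.

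**Figure D3:**
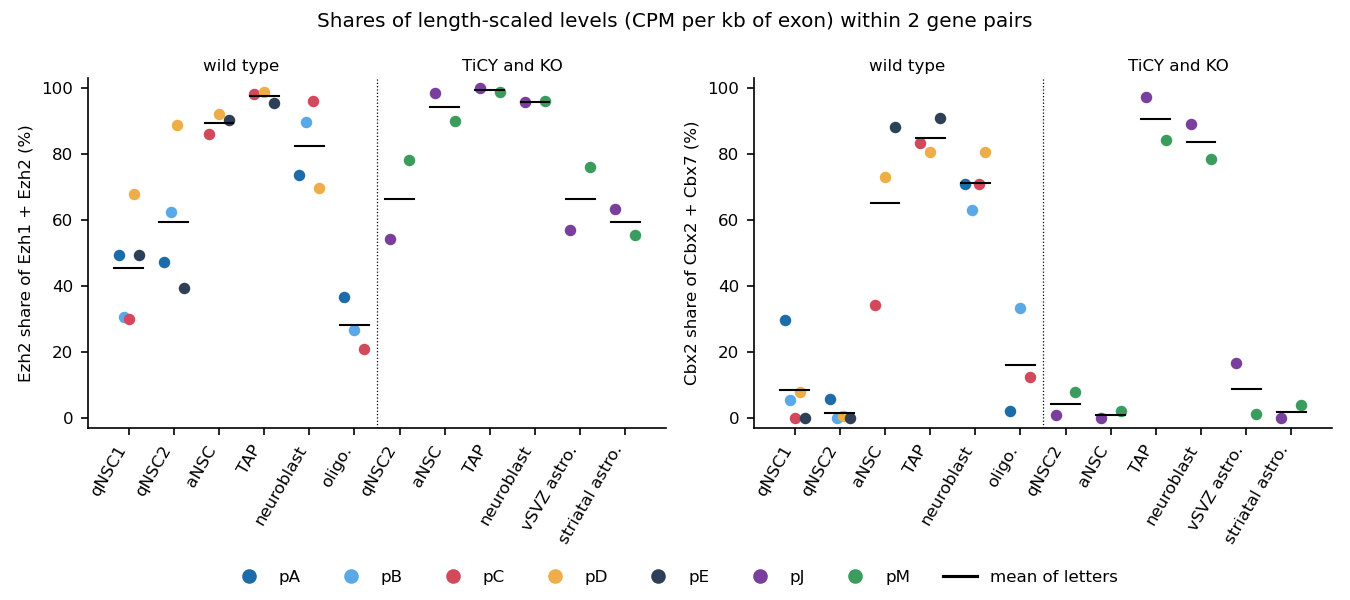
Share of Ezh2 in Ezh1 plus Ezh2 and of Cbx2 in Cbx2 plus Cbx7, from CPM per kb, in percent; each point is 1 sum, coloured by letter, with WT types left of the dotted line and naive TiCY and KO types right of it. Ezh2 takes 95.5% to 98.8% of its pair in WT TAP and 21.0% to 36.6% in oligodendrocytes, and Cbx2 is at or below 2.29% of its pair in aNSC of pJ and pM but at 34.4% to 88.1% in WT aNSC.

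The antibody sorts of pA, pB and pC gave a comparison whose groups were not drawn from RNA. In the neuroblast (NB) sort Ezh2 stood at 262, 393 and 392 CPM, and in the NSC sort at 71.9, 78.6 and 55.6 CPM. The sorts did not overlap. The difference was 2.34 ± 0.65 (edgeR adjusted p = 0.0334, higher in 3 of 3 letters), and Ezh2 was the 1 member of 10 called, where 11.8% of all 14348 genes tested were called. With any 1 letter left out the call was lost (adjusted p = 0.133 without pA, 0.256 without pB and 0.0833 without pC). The NSC sort was a mix: 6 oligodendrocyte markers summed to between 34.3 and 39983 CPM across its letters, and their part in the result was not tested.

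Jarid2 stood at 167, 192 and 104 CPM in the NB sort and at 51.8, 64.4 and 39.1 CPM in the NSC sort, without overlap. Its difference of 1.58 missed the threshold (edgeR adjusted p = 0.0857) and passed it with the letter as a block (0.027, where 19.2% of all genes were called) and by DESeq2 (0.0283). Suz12 stood at 162, 206 and 112.4 CPM against 42.9, 112.0 and 53.5 CPM, groups that nearly touched, and gave 1.203 (adjusted p = 0.173). Cbx2 at 38.5, 27.8 and 28.8 CPM lay above the NSC sort (15.3, 2.45 and 0.869 CPM), and Cbx7 at 24.1, 24.6 and 15.1 CPM lay below it (52.8, 39.9 and 38.2 CPM). Both readers kept apart in every letter, but neither difference passed (2.33, adjusted p = 0.224; -1.04, adjusted p = 0.39). Between the OLIGO and NSC sorts edgeR called 0 members (6.1% of all genes tested), 0 had an unadjusted p under 0.05, and DESeq2 called 0.

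A second set of naive cells came from pJ (IFN(A/G)R KO) and pM (TiCY), 12 sums in which genotype and letter cannot be told apart. Ezh2 in pJ and pM stood at 104 and 178 CPM in qNSC2, 558 and 575 CPM in aNSC, and 1329 and 1499 CPM in TAP. All 4 cycling sums lay above both quiescent ones. The difference was 2.67 ± 0.52 (edgeR adjusted p = 0.0181, higher in 2 of 2 letters), the 1 call among 10 members where 3.02% of all 16009 genes tested were called. The call held in the 6 alternatives that could be fitted. Neuroblasts stood at 359 and 837 CPM, vSVZ astrocytes at 86.4 and 193 CPM and striatal astrocytes at 81.0 and 80.5 CPM, so the astrocytes lay near or below the level of qNSC2.

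Cbx7 in this set stood at 103.5 and 70.5 CPM in qNSC2 (pJ, pM), 0.939 and 33.7 CPM in aNSC, and 2.34 and 8.85 CPM in TAP. Cycling and quiescent sums were again apart, but the difference of -3.13 did not pass (edgeR adjusted p = 0.122); DESeq2 called it. Cbx2 stood at 51.5 and 31.0 CPM in TAP and at 0.633 and 4.04 CPM in qNSC2. In aNSC of pJ and pM it stood at 0 and 0.519 CPM, below qNSC2 of the same letter. For Cbx2, aNSC and TAP against qNSC2 gave 0.64 ± 1.84 (edgeR adjusted p = 0.909), so the WT call was not repeated in this set. The 3 WT aNSC sums had 7.01 to 39.9 CPM, but these sets were normalised separately and that difference was not tested. Ezh1 was at 0 and 22.1 CPM in TAP against 98.0 and 55.1 CPM in qNSC2.

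In the 3 other comparisons of this set edgeR called 0 members. These were neuroblasts against aNSC and TAP (6.85% of all genes tested called), vSVZ astrocytes against qNSC2 (0.0125%) and striatal against vSVZ astrocytes (0%). In each of them 0 members had an unadjusted p under 0.05 and DESeq2 called 0 members; for striatal against vSVZ astrocytes, 141 of all genes had an unadjusted p under 0.05 and DESeq2 called 9. Jarid2 stood at 192.5 and 189 CPM in striatal and at 114 and 100.3 CPM in vSVZ astrocytes, without overlap.

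**Figure D4:**
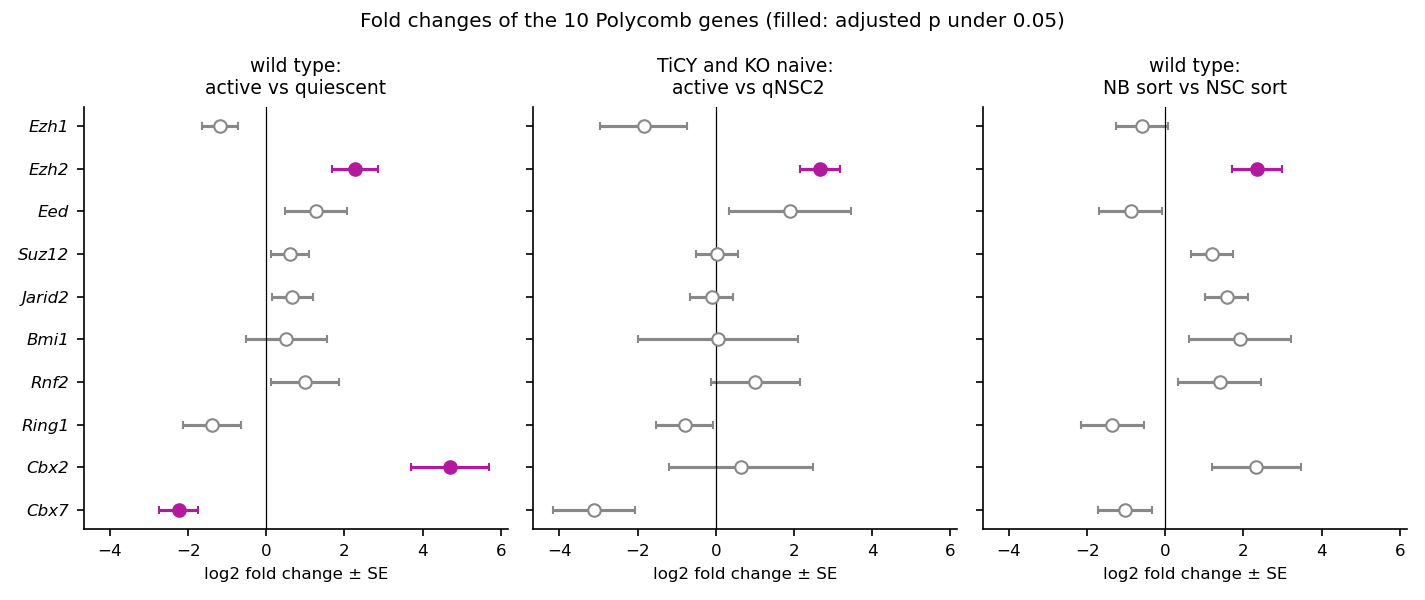
Log2 fold changes with SE of the 10 Polycomb genes in tested comparisons; filled points had an edgeR adjusted p under 0.05. Ezh2 is filled and positive in wild-type cycling against quiescent cells (2.27), in the NB against the NSC sort (2.34) and in the naive TiCY and KO set (2.67).

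Ezh2 followed proliferation genes across WT sums. Over the 22 sums, which share letters and depth, the correlation of its log2 CPM with the summed level of 20 proliferation genes was 0.903, as a description; it was 0.840 for Cbx2, -0.731 for Cbx7, -0.538 for Ezh1 and between -0.386 and 0.398 for the others. The 5 tested genes most like Ezh2 were Mki67 (r = 0.926), Top2a (0.925), Ncaph (0.921), Fam111a (0.913) and Cdk1 (0.906). Those most like Cbx7 were Tapbp, Crtc3, Clstn1, Pacsin1 and AC154486.2 (0.800 to 0.845), and those most like Ezh1 were Mon2, Arhgap23, Rslcan18, Fam234b and Kcna6 (0.756 to 0.802). Among the members, Cbx2 and Cbx7 had r = -0.776 and Ezh2 and Cbx2 r = 0.706.

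Cells of 1 type and letter were also split by whether they had a count of Mki67, a marker of cycling cells. Ezh2 was higher in the cells with Mki67 in 8 of the 9 sums that held at least 3 cells of both kinds. The exception was aNSC of pC, with 249 CPM (plain CPM) in 3 cells with Mki67 and 270 CPM in 7 cells without. In neuroblasts of pB, 4 cells with Mki67 had 1194 CPM of Ezh2 (plain CPM) and 21 cells without had 346 CPM, and in pC 8 cells had 762 and 19 cells had 291 CPM. In qNSC2 of pD, 11 cells with Mki67 had 704 and 23 cells without had 358 CPM. In qNSC1 of pD the values were close, 173 CPM in 18 cells with and 160.2 CPM in 39 cells without. Depth bears on such a split, since a shallow cell can miss Mki67, and it was not tested. In TAP of pC the 3 cells without Mki67 had a median of 8565 counts, and the 9 cells with it 130424.

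Other genes of the system, from lists chosen together with the members, moved less than the proliferation genes. Between cycling and quiescent WT cells 17.4% of all genes tested were called. The few calls in the chromatin lists stand beside that share and are not read as a result about those lists. Of 7 further PRC2 genes, 2 rose in cycling WT cells: the histone-binding subunit Rbbp7 (125 ± 47.6 to 283 ± 186 CPM, log2 fold change 1.16, edgeR adjusted p = 0.0324) and the accessory subunit Aebp2 (1.47, 0.038). Of 19 further PRC1 genes, Pcgf6 rose (1.61, edgeR adjusted p = 0.0482) and the polyhomeotic gene Phc3 fell from 162 ± 77.0 to 31.6 ± 19.5 CPM (-2.45, 0.00409). Of 6 genes for proteins that remove the Polycomb marks, Asxl3 rose (4.54, 0.00741), and of 12 Trithorax and COMPASS genes, which oppose Polycomb, Wdr5 (1.89, 0.00802) and Dpy30 (2.54, 0.00568). Of 20 proliferation genes 17 rose, among them Rrm2, Mcm6 and Mcm7 (6.59, 5.83 and 5.48). The medians of the lists were 1.16, 0.18, 0.43, -0.08 and 3.90, against -0.22 for all genes tested. With the letter as a block Rbbp7 (0.90, adjusted p = 0.0668), Aebp2 (1.38, 0.0756) and Pcgf6 (1.15, 0.0937) lost the call. Without letter pE all 7 of these chromatin genes did, with adjusted p from 0.0591 for Dpy30 to 0.673 for Pcgf6.

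At other steps single genes of these lists were called. In WT neuroblasts against aNSC and TAP, 1 of 7 further PRC2 genes was called and 0 of the 19 PRC1, 6 eraser, 12 Trithorax and COMPASS and 20 proliferation genes, where 1.4% of all genes tested were: Rbbp7 fell (-2.36, edgeR adjusted p = 0.0206), a call lost without pA, pB, pC or pE. In pJ and pM the same step had 6.85% of all genes called, and Rbbp7 fell there as well (424 ± 188 to 78.0 ± 19.2 CPM, -2.37, 0.0132). Pcgf5 also fell (146 ± 47.6 to 3.14 ± 4.44 CPM, 0.0126), as 1 of 19 PRC1 genes. Of 6 erasers 2 rose, the H3K27 demethylase Kdm6b (2.52, 0.0103) and Asxl3 (0.325 ± 0.390 to 30.3 ± 14.5 CPM, 0.0448, and 0.0528 with the letter as a block), and 3 of 20 proliferation genes fell. Top2a went from 1530 ± 1656 to 0.627 ± 0.887 CPM (0.00184), and Mcm4 (52.9 ± 26.9 CPM in cycling cells, 0.0339) and Uhrf1 (144 ± 106 CPM, 0.0407) had no count in either neuroblast sum. Between cycling cells and qNSC2 of pJ and pM, where 3.02% of all genes were called, the PRC1 gene Auts2 fell (-1.94, 0.0492) and 2 of 20 proliferation genes rose, Top2a (6.89) and Pcna (3.14).

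In the NB sort, where 11.8% of all genes tested were called, Mtf2, an accessory PRC2 subunit, was higher than in the NSC sort (2.60, edgeR adjusted p = 0.0315), as 1 of 6 PRC2 genes tested. Of 19 PRC1 genes Pcgf2 (2.93, 0.0411) and Pcgf6 (2.33, 0.0355) were higher, and Pcgf5 was lower (-2.46, 0.0473, and 0.0541 with the block). Of 6 erasers Kdm6b was higher (2.53, 0.00529), and of 20 proliferation genes Mcm7 (3.41, 0.0129). With a letter of the sorts left out, each of these 6 calls was lost for at least 1 letter. In the OLIGO sort (6.1% of all genes) Pcgf5 was lower (-2.88, 0.039, and 0.0515 with the block) and was the 1 gene of these lists called. Oligodendrocytes, with 11% of all genes called, had more Aebp2 (log2 fold change 2.34), Phc1 (2.03), Rybp (128 ± 62.8 against 3.01 ± 2.60 CPM) and Asxl3 (93.9 ± 74.9 against 0.399 ± 0.388 CPM) and less Pcgf5 (-3.27) than qNSC1, with edgeR adjusted p from 0.00141 to 0.0419 (Phc1, and 0.0727 with the block). These were 1 of 7 PRC2, 3 of 19 PRC1 and 1 of 6 eraser genes, and Asxl3 was the 1 of the 5 that kept its call with any 1 letter left out.

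Known targets of Polycomb silencing were near the floor. Of 26 such genes in the table (Cdkn2a, Cdkn2b and the Hox genes), 24 had any count and none passed the filter of the WT fit. The highest mean levels in a WT type were 3.54 CPM for Cdkn2b in aNSC and 3.05 CPM for Cdkn2a in TAP. Cdkn2a had 252 counts in 19 cells of all 1981, and Cdkn2b 816 counts in 51 cells. Levels this low do not allow a difference between types to be read.

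Groups with 1 letter allowed no test. Their values are plain CPM with exact 95% Poisson intervals, which cover counting error only, and a gene is counted as past the fold where the ratio, with 5 CPM added to each side, was at least 2 in either direction. The shares given for all genes are of genes with a mean of at least 10 CPM. Comparisons 2 and 21 days after ischemia share the naive pM cells. In TiCY mice the naive, 2 day and 21 day cells are different letters (pM, pI and pH), so ischemia and letter cannot be told apart. The median cell held 151508 counts in pM, 304367 in pI and 160858.5 in pH. KO and TiCY cells at 2 days are also different letters (pJ and pI).

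GLAST-positive cells of the vSVZ, sorted on an antigen of astrocytes and NSCs, had more Cbx2 and less Suz12 after ischemia than before. Cbx2 stood at 4.27 CPM in 188 naive TiCY cells [3.55 to 5.10], 60.6 CPM in 176 cells at 2 days [58.1 to 63.3] and 26.1 CPM in 155 cells at 21 days [24.1 to 28.2]. In KO cells it stood at 10.4 CPM naive (134 cells) and 57.6 CPM at 2 days (228 cells). Suz12 went the other way, with 165, 59.5 and 44.0 CPM in TiCY and 128 and 63.2 CPM in KO cells. The direction from naive to 2 day cells was the same in TiCY and KO cells, and the makeup of the sort also changed in both. Ezh2 was even by comparison, at 316, 388 and 332 CPM in TiCY and 214 and 342 CPM in KO cells. At 2 days 3 of 10 members were past the fold, where 36.2% of all genes compared were (log2 ratio 2.82 for Cbx2, 1.29 for Rnf2 and -1.40 for Suz12). At 21 days 2 were (1.75 for Cbx2 and -1.80 for Suz12), where 15.9% of all genes were. Between KO and TiCY cells at 2 days 0 members were past the fold, and 18.3% of all genes were.

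The makeup of that sort differed between the groups. Neuroblast markers summed to 948 CPM in naive, 5458 CPM in 2 day and 796 CPM in 21 day TiCY cells, with 0 of 7 markers at 0 counts in each. Astrocyte markers summed to 27082, 6229 and 16297 CPM and the proliferation genes to 781, 1207 and 1286 CPM. KO cells labelled neuroblast numbered 8 naive and 76 at 2 days, and KO cells labelled vSVZ astrocyte 79 and 36. The part of these shifts in the Cbx2 and Suz12 values was not tested. In types rather than sorts, KO cells at 2 days had more Cbx2 than KO naive cells in neuroblasts (117.5 against 27.02 CPM), aNSC (39.3 against 0 CPM), qNSC2 (16 against 0.61 CPM) and TAP (88.9 against 57.1 CPM). Striatal astrocytes had 3.60 against 0 CPM, and vSVZ astrocytes went the other way, with 0.703 CPM in 36 cells at 2 days against 8.45 CPM in 79 naive cells. For Suz12 the KO types disagreed, with the highest cell of each group left out. At 2 days it was lower in vSVZ astrocytes (20.4 against 110.6 CPM), TAP (121.8 against 165.4), neuroblasts (53.8 against 62.9) and qNSC2 (39.1 against 44.4). It was higher in aNSC (75.3 against 25.3 CPM) and striatal astrocytes (161.8 against 90.7). Between naive and 2 day KO cells, 53.8% of all genes were past the fold in neuroblasts and 49.4% in aNSC. The shares were 36.6% in qNSC2, 38.1% in TAP, 29.3% in striatal astrocytes and 34.8% in vSVZ astrocytes. Members past the fold were 5, 3, 2, 4, 3 and 4 in the same order of types. A shift of Cbx2 past the fold was therefore not unusual among all genes in these types. Several of these groups are small, and 1 of the 8 naive neuroblasts held 85.7% of their Cbx2 counts.

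Striatal GLAST-positive cells showed how much 1 cell can weigh. Ezh2 stood at 69.8 CPM in 131 naive TiCY cells [65.8 to 74.1], 599 CPM in 122 cells at 2 days [592 to 606] and 134 CPM in 79 cells at 21 days. A single cell held 76.8% of the Ezh2 counts at 2 days; without it the level was 140 CPM, and the median cell had 37.1 CPM. The log2 ratio to naive cells was 3.01 with and 1.09 without the highest cell, a comparison added after seeing the data. KO striatal cells had 68.9 CPM naive and 176 CPM at 2 days (161 CPM without the highest cell). The ratio of KO to TiCY cells at 2 days was -1.74 with and 0.19 without the highest cell of each, so its direction rests on that cell.

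Suz12 in the striatal sort stood at 144.5, 48.0 and 51.5 CPM in TiCY (naive, 2 days, 21 days), and at 107 and 182.5 CPM in KO cells (naive, 2 days). TiCY cells had less after ischemia and KO cells more, and with 1 letter a group this difference was not tested. Rnf2 stood at 10.6, 48.2 and 7.52 CPM in TiCY cells. At 2 days 3 of 10 members were past the fold (Ezh2, Rnf2 1.77 and Suz12 -1.50), where 42.6% of all genes were, and at 21 days 1 (Suz12, -1.40), where 18.4% were. Between KO and TiCY cells at 2 days 4 were past the fold (Suz12 1.82, Cbx2 1.47, Ezh2 -1.74 and Jarid2 -1.06), where 39.6% of all genes were. Astrocyte markers summed to 34754 CPM in naive and 7726 CPM in 2 day TiCY cells, and 4 endothelial markers to 4.66 and 114 CPM; their part in these values was not tested.

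**Figure D5:**
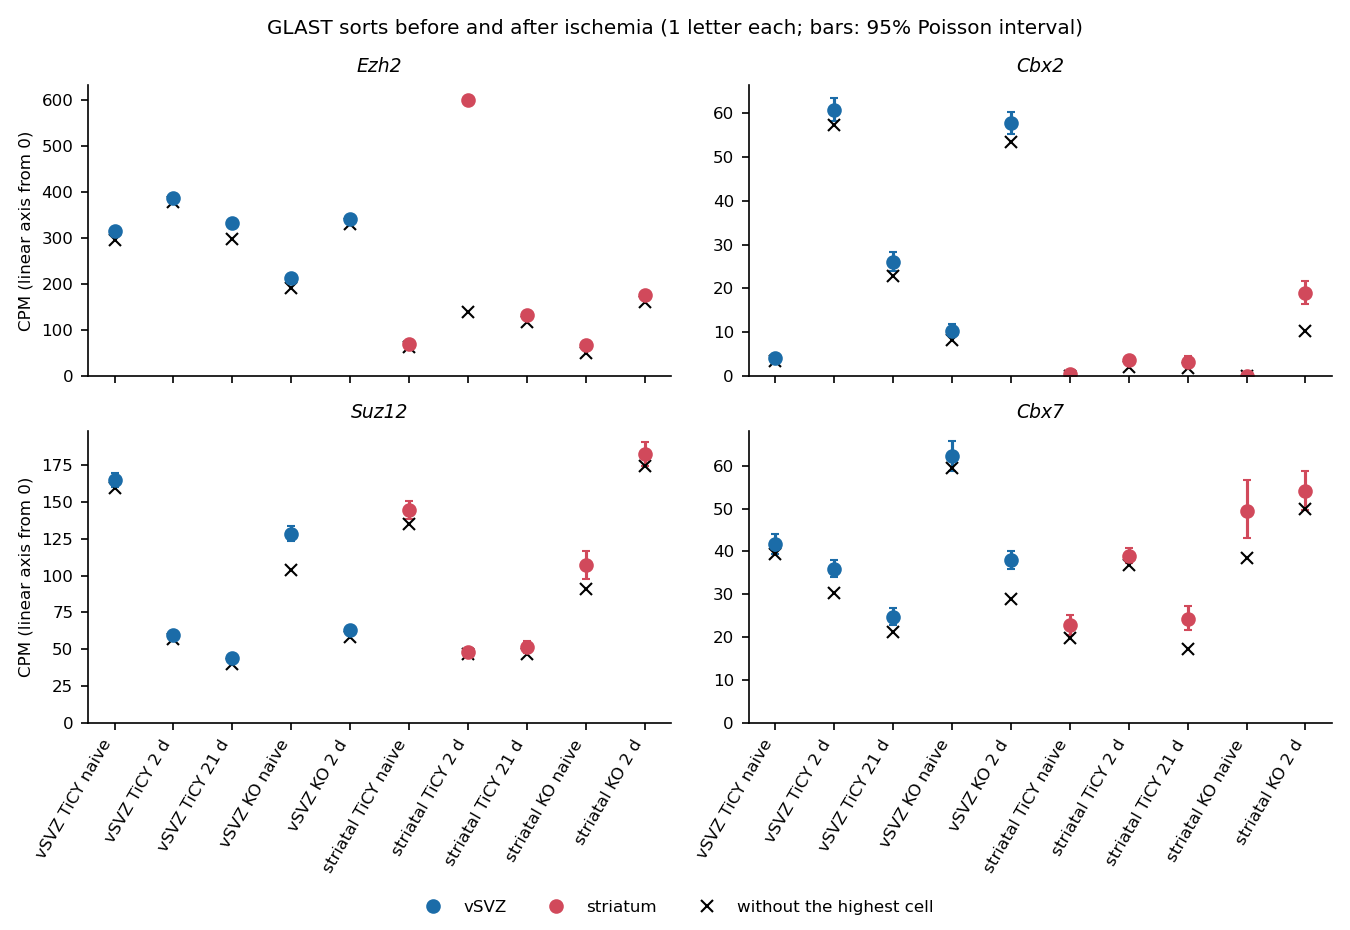
Levels of Ezh2, Cbx2, Suz12 and Cbx7 in GLAST-positive sorts of vSVZ and striatum, naive and after ischemia, on a linear CPM axis from 0; each point is the sum of 1 letter bars are exact 95% Poisson intervals, and crosses are the level without the highest cell. Cbx2 in vSVZ cells goes from 4.27 to 60.6 CPM at 2 days in TiCY mice, and Ezh2 in striatal TiCY cells at 2 days reaches 599 CPM, of which 1 cell holds 76.8%.

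Cells that the labels call neurogenic striatal astrocytes had more Ezh2 and Cbx2 than other striatal astrocytes. In 27 KO cells at 2 days Ezh2 stood at 520 CPM [493 to 548] against 56.3 CPM [51.1 to 62.0] in 82 striatal astrocytes of the same letter, and Cbx2 at 66.5 against 3.60 CPM. One cell held 52.8% of the Cbx2 counts, and without it the level was 33.7 CPM. Eed leaned the other way (16.3 against 39.7 CPM). These 3 of 10 members were past the fold, where 40.9% of all genes were. The proliferation genes summed to 2224 CPM in the neurogenic cells and 127 CPM in the astrocytes, and neuroblast markers to 2991 and 96.7 CPM.

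Cortical and striatal astrocytes of the TCF-Lef reporter mice differed past the fold in 2 members, where 19.8% of all genes did. Cbx7 stood at 16.9 CPM in 32 cortical and 48.5 CPM in 33 striatal cells, and Rnf2 at 9.27 and 27.1 CPM. Ezh2 was low in both, at 27.2 and 38.1 CPM. In 12 WT striatal astrocytes of pE, set against 20 cells of qNSC1 in the same letter, Jarid2 (153 against 45.8 CPM, log2 ratio 1.64) and Cbx2 (8.58 against 0.0544 CPM, 1.43) were past the fold, 2 of 10 members where 20.4% of all genes were. Without its highest cell Cbx2 was at 0.995 and no longer past it, with 1 count in the qNSC1 cells. Ezh2 was close, at 52.6 and 44.2 CPM. In olfactory bulb cells (55 cells of pF, labelled neuroblast or neuron) Ezh2 stood at 245 CPM and Jarid2 at 189 CPM, inside the range of vSVZ neuroblasts. Against all vSVZ neuroblasts 5 of 10 members were past the fold, where 41.4% of all genes were: Ring1 was higher and Bmi1, Rnf2, Ezh1 and Suz12 were lower. Against the neuroblasts of pC and pD alone, letters of like depth, Cbx7 was the 1 member past it (35.4 against 10.98 CPM, log2 ratio 1.34), where 39.2% of all genes were.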

How the data were processed

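The authors deposited a table of whole-number counts for each gene in each cell, with no scaling. Per the submitters' processing notes, reads were aligned with STAR and counted with featureCounts on GRCm38 (mm10); no version and no strand setting is given there. Libraries were made by Smart-seq3, per the labels' protocols. Of 2584 cells in the table, 1981 matched a label and 603 did not and were not used; 103 labelled cells were not in it. No 2 cells held identical counts.

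Counts were summed per type or sort and letter (at least 3 cells) and tested with edgeR 4.0.16 in R 4.3.3 (TMM, filterByExpr, quasi-likelihood F test, Benjamini-Hochberg adjustment over all genes tested, threshold 0.05). SEs were derived from the log2 fold change and F. The 3 fits were WT types (22 sums, 16 residual degrees of freedom), WT sorts (12, 8) and naive pJ and pM (12, 6). Alternatives used DESeq2 1.42.0, limma 3.58.1 on cells weighted equally, other filters, left-out letters and letters with like depth. On simulated counts the test found 19%, 5% and 12% of genes changed by 2 on the log2 scale (100 genes each; cycling WT cells, NB sort, and cycling cells of pJ and pM) and 98%, 81% and 90% of those changed by 4. The changed genes lay above a minimum expected count, and the simulation had no letter effect. All 10 members were tested in every comparison that has a test. A member not named in one of these was not called by edgeR in the main fit. Of the other lists, the called genes are named, at most 3 in each direction, and the 5 genes most like Ezh2, Ezh1 and Cbx7 by Pearson r. Members and lists were chosen with earlier results of these data known.

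Same-letter sums deviated together in the WT types (r from 0.100 to 0.527 over 38 pairs, a median of -0.0863 for different letters) and sorts (0.148 to 0.485), so letters pair these sums. The main fits have no letter term, so their p-values treat sums of the same letter as independent. A fit that adds the letter as a blocking term is given where it changes a call.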

Additional observations from a re-analysis of the deposited data

Results flagged for a closer look

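In 6 of the 30 groups of member levels that hold 4 or 5 WT sums, 1 sum lay further from the others than Dixon's criterion at the 95% level allows. Chance meets this criterion in about 1 of 20 groups of normally distributed values. CPM were used without a log, so this rate may not hold here, and all 6 sums lay above the others. Letter pD gave 4 of them. Ezh2 in qNSC1 of pD was 197 CPM, where the next sum had 46.2 CPM, and in qNSC2 of pD it was 500.4 CPM, where the next had 79.7 CPM. Ring1 in qNSC1 of pD was 112 CPM against 36.5 CPM in the next, and Eed in qNSC2 of pD was 33.9 CPM against 4.63 CPM. The other 2 were Cbx2 sums of letter pA, 34.4 CPM in neuroblasts against 23.3 CPM in the next and 9.92 CPM in qNSC1 against 2.79 CPM. The quiescent sums of pD hold 57 and 34 cells and had the most proliferation RNA among quiescent sums (619 and 916 CPM); its part in these levels was not tested.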

How the results depend on the processing

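The counts of genes called moved with the method. In fits of pA, pB and pE alone every aNSC and TAP sum came from pE. For cycling against quiescent WT cells edgeR called 2599 genes, DESeq2 3930, sums of at least 5 cells 943, pC and pD alone 78 and leave-one-letter-out fits 935 to 2860; members called were 3, and 5 with the replicate block, 1 with at least 5 cells, 0 within pC and pD alone and 2 to 4 with a letter left out. For WT neuroblasts against aNSC and TAP 209 genes became 949 (DESeq2), 462 (limma), 130 (at least 5 cells), 717 (pA, pB and pE), 0 (pC and pD) and 21 to 438 (a letter left out). For qNSC2 against qNSC1 12 became 60 (block), 286 (DESeq2), 207 (limma), 22 (pA, pB and pE), 0 (pC and pD) and 0 to 25 (a letter left out). For oligodendrocytes against qNSC1 1636 became 2495 (DESeq2), 186 (pC and pD) and 800 to 1950 (a letter left out). For the NB sort 1690 became 2755 (block), 2979 (DESeq2) and 369 to 1335 (a letter left out), and its 1 member called became 2 (block, DESeq2, or without each highest cell), 3 (limma) and 0 with any letter left out. For the OLIGO sort 875 became 1883 (DESeq2), 1378 (limma) and 273 to 487 (a letter left out). In the pJ and pM set, cycling against qNSC2 gave 484, with 1842 (DESeq2, 2 members), 1154 (no filter) and 1038 (limma); neuroblasts gave 1097, with 2985, 1835 and 1819; vSVZ astrocytes gave 2, with 107, 69 and 1; and striatal astrocytes 0, with 9 (DESeq2) and 8 (no filter). Members past the fold went from 5 to 2 (20 CPM added) and to 1 (pC and pD alone) for the bulb. For vSVZ cells at 21 days they went from 2 to 1 (20 CPM). For striatal cells they went from 3 to 6 at 2 days and from 1 to 2 at 21 days (1 CPM). For striatal KO against TiCY cells 4 became 2 (20 CPM, or without the highest cell). For cortical cells 2 became 0 (20 CPM) and 1 (without the highest cell). Striatal astrocytes of pE went from 2 to 1 (20 CPM, or without the highest cell), and neurogenic cells from 3 to 4 without the highest cell. With 1 or 20 CPM added, or without the highest cell, the share of all genes past the fold was not taken. Those member counts therefore have no background beside them. Directions reversed for Bmi1 in cycling WT cells with at least 5 cells (-0.52), Bmi1 in the bulb against pC and pD (0.89) and Ezh2 in striatal KO against TiCY cells (0.19). Of single-gene values under an alternative, 569 kept direction and side of the threshold, 11 gained and 158 lost the call, and 3 reversed. The cause was not tested. Leaving out a letter of pJ and pM leaves no residual degrees of freedom and was not run. With the replicate block, Ezh2 in cycling WT cells was 2.71 (adjusted p = 0.00171). Leaving out highest cells was chosen after seeing the data.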

Other observations

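Small groups of TiCY cells entered no comparison. Ezh2 stood at 196 CPM in 6 neurogenic striatal astrocytes and at 36.5 CPM in 7 reactive astrocytes of TiCY mice at 2 days, and at 117 CPM in 5 cells labelled qNSC2. Bmi1 had no count in the 35 naive KO striatal cells, which allows a level of up to 0.685 CPM for 3 counts of the summed total.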
